A study of Mus musculus with 8 samples.

Results

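The interferon-inducible p200 genes are a family of neighbouring mouse genes whose products bind DNA. Of the 6 members considered, Ifi205, Ifi203, Ifi202b and Aim2 each had a probe set annotated with that symbol alone. Ifi204 and Mnda, an older name of Ifi211, shared a single probe set that carries the symbols Ifi211 and Ifi204. The family was therefore read through 4 probe sets with 1 symbol, of 21218 such probe sets, and 1 probe set with several symbols, of 35556 probe sets in all. The family was chosen by the tolerant minus rejecting values of these same arrays, since Ifi205 had stood out between the groups in earlier results. Those values are accordingly a description of the members. Counts of members called or not overlapping in that contrast are printed beside the share over all probe sets, and nothing is read from them.

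RNA was measured on 8 arrays in CD3+ T cells taken at day 30 from tissues derived from human embryonic stem cells (hESC) and grafted into wildtype CD1 mice, an outbred strain. The 4 tolerant samples came from mice injected with anti-CD4, anti-CD8 and CD40L antibodies, and the 4 rejecting samples came from untreated mice. The study asked how T cells in a tolerated graft differ from those in a graft under rejection. Whether every sample is a mouse of its own is not stated in the labels. The p-values therefore cover the spread among these 8 samples and no more, and that spread may be technical. The array is a mouse array, and the human graft was not measured separately.

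Proteins of the p200 family carry a HIN domain, which binds DNA, and most also carry a pyrin domain, through which they join other proteins. Aim2 senses DNA in the cytosol and assembles an inflammasome with the adaptor Asc, encoded by Pycard, which activates caspase-1. Ifi204 is the mouse relative of human IFI16, a DNA sensor that signals through Sting, and Ifi202b encodes p202, which lacks a pyrin domain and inhibits Aim2 in mice. Many of these genes are induced by interferons in leukocytes, and human MNDA is known as a nuclear antigen of myeloid cells.

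In the RefSeq order of genes on mouse chromosome 1 (GRCm38.p6), 13 genes of the family lie in the order Aim2, Ifi206, Ifi214, Ifi213, Ifi209, Ifi208, Ifi207, Ifi204, Mndal, Ifi211, Ifi203, Ifi202b and Ifi205. The interferon-stimulated response element (ISRE), the DNA element through which type I interferons act, was searched as an exact core on both strands, GAAA and GAAA with any 2 bases between them, from 250 bases before to 50 bases after each start site in the RefSeq promoter table. The core was present in 3.44% of 32851 promoter windows and in 10 of the 14 family windows. The member Ifi204 had no window. By gene, the core was present in 9 of the 12 family genes with a window. Among the members with a window it was found for Ifi205, Ifi203 (at the second of its start sites) and Ifi211, and it was not among the letters of the Aim2 and Ifi202b windows. Of 7 relatives, 6 held it, the exception being Ifi209. A match describes the letters of the reference genome only, and the sequence of the CD1 mice was not read.

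The bases around the core are printed because they show what most of the family shares before the start site. Each run reads 5′ to 3′ on the strand of the gene, from RefSeq promoters on GRCm38.p6, with the core in capitals. The coordinates are chr1:174031870-174031899 (minus strand) for Ifi205, chr1:173942508-173942537 (minus) for Ifi203, chr1:173913064-173913093 (minus) for Ifi211, chr1:173741831-173741860 (minus) for Ifi207, chr1:173599326-173599355 (minus) for Ifi213 and chr1:173536017-173536046 (minus) for Ifi214.
Ifi205: ccaggccaggGAAATTGAAAgctatgaaca
Ifi203: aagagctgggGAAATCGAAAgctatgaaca
Ifi211: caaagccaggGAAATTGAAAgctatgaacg
Ifi207: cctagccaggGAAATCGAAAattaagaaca
Ifi213: cgtctctgagGAAATCGAAAgctatgaacc
Ifi214: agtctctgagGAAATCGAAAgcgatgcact
Over these 30 bases, Ifi211 had 27 positions identical to Ifi205, Ifi207 had 24, Ifi203 had 23, Ifi213 had 21 and Ifi214 had 18. The core lay from base -35 to -26 before the start of Ifi203 and from -37 to -28 for Ifi211. In Ifi205 it lay farther upstream, from -134 to -125, and a second match stood on the other strand from base 24 to 33 after the start.

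The whole 250 bases before the start of Ifi205 (chr1:174031756-174032005, minus strand, GRCm38.p6) and of Ifi202b (chr1:173982845-173983094, minus strand) are shown for these neighbours in the gene order, of which only Ifi205 held the ISRE core. The capitals mark the ISRE core in Ifi205 and, in Ifi202b, the gamma-activated site (GAS) TTCNNNGAA, an element of interferon-gamma responses that reads the same on either strand.
Ifi205: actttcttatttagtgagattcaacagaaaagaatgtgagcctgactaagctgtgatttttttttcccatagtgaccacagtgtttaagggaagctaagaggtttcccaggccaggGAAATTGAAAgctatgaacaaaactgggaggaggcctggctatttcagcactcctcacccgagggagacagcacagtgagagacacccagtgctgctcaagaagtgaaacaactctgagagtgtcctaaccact
Ifi202b: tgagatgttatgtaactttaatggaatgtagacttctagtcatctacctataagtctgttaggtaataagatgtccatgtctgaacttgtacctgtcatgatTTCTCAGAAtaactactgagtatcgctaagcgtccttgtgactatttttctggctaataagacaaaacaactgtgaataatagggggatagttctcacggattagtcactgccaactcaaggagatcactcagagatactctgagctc
The GAS letters were found in 8.3% of all windows and in 1 of the 14 family windows, that of Ifi202b, from base -148 to -140.

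**Figure D1:**
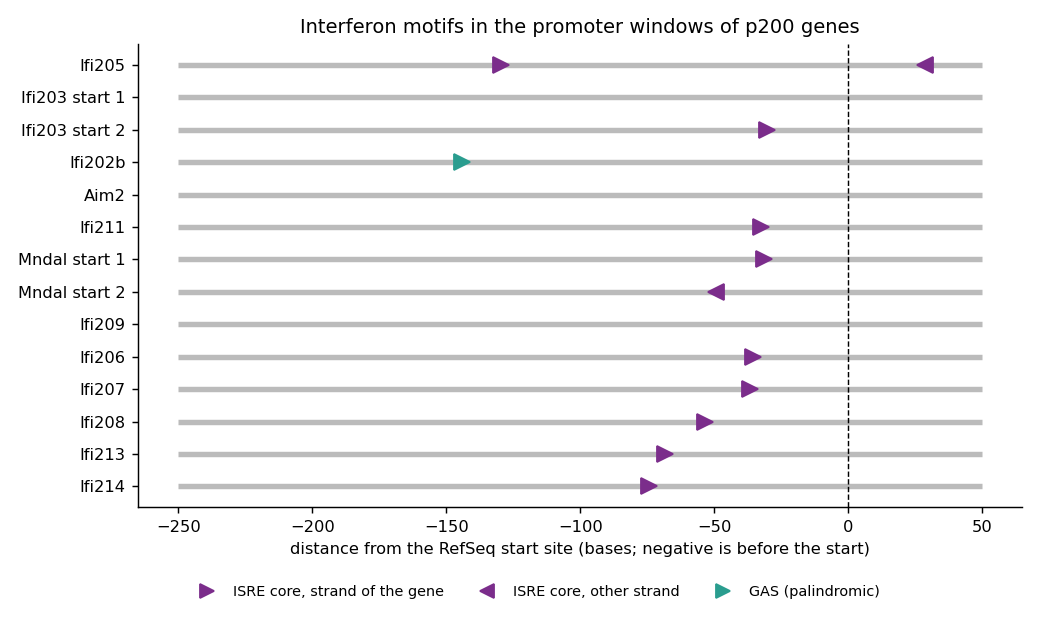
Positions of the ISRE core (purple, pointing right on the strand of the gene and left on the other strand) and of the GAS letters (green) in the RefSeq promoter windows of the p200 genes; the x axis is distance from the start site in bases and each grey line is 1 window. The core was found for 9 of the 12 genes with a window, closer to the start in Ifi203 and Ifi211 than upstream of Ifi205.

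Levels are the deposited log2 values, in which the authors had already corrected and scaled the arrays. The table holds no detection calls, so each array's own background was taken from 1006 probe sets of olfactory receptors (Olfr), genes best known from the nose. The line was set at the 99th percentile of those probe sets, so that 1% of them lie above it by construction. It stood at 1.35, 1.41, 1.05 and 1.01 on tolerant arrays 1 to 4, against 1.18, 1.14, 1.03 and 1.19 on rejecting arrays 1 to 4. The arrays fell into 2 sets by their number: 16.9% and 16.2% of all 1-symbol probe sets lay above the line on tolerant arrays 3 and 4, against 14.5% and 9.71% on rejecting arrays 3 and 4. On the arrays numbered 1 and 2 the shares were 2.57% and 2.08% for tolerant samples, against 5.0% and 5.88% for rejecting samples. The origin of the sets is not given in the labels, and results are given over all 8 arrays, within arrays 3 and 4, and within arrays 1 and 2.

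The sort for CD3+ cells was checked against markers. Of 8 measured T-cell markers, 1, 0, 4 and 5 lay above the line on tolerant arrays 1 to 4, against 1, 1, 3 and 3 on rejecting arrays 1 to 4. Cd3e, part of the CD3 complex, was above it on 5 arrays. Thy1 was above it on tolerant arrays 3 and 4 and on rejecting arrays 1, 3 and 4. Cd5 was above it on tolerant arrays 1, 3 and 4 and on rejecting arrays 3 and 4. Cd3g passed it only on tolerant arrays 3 and 4 and Cd2 only on tolerant array 4, while Cd3d, Cd247 and Cd6 were above it on 0 arrays. In bulk RNA, fewer cells of a type and less RNA per cell cannot be told apart.

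**Figure D2:**
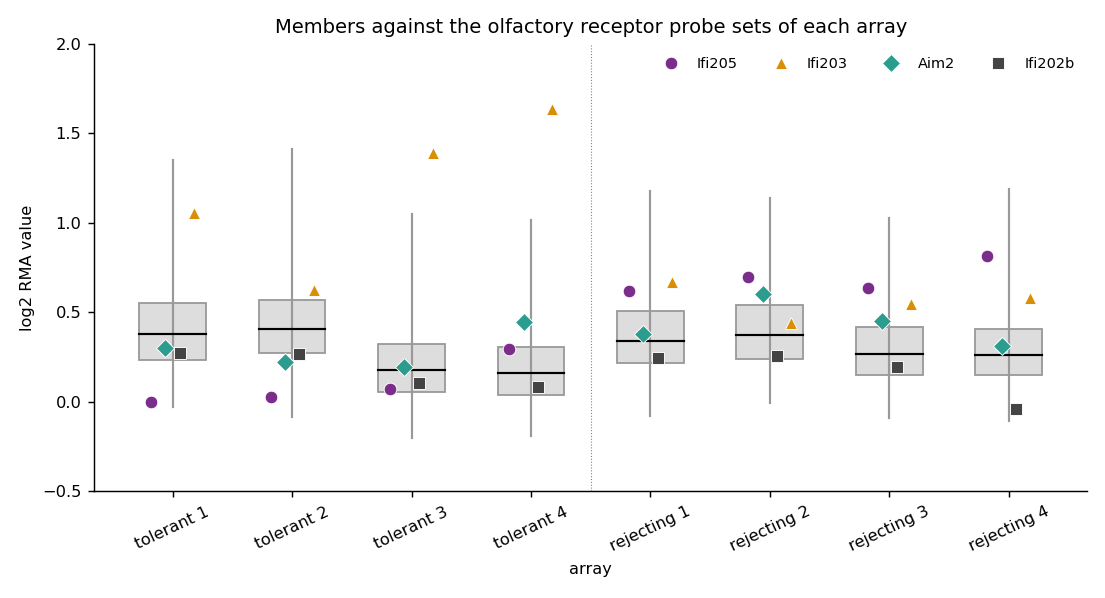
Olfactory receptor probe sets on each array (y axis, log2 value), with tolerant arrays left of rejecting arrays; the box spans the 25th to 75th percentile, its line is the median, and the vertical line runs from the 1st to the 99th percentile. Points are the 4 members with a probe set of their own, of which Ifi203 on tolerant arrays 3 and 4 lies above the 99th percentile, while Ifi205 lies below the box on tolerant arrays 1 and 2 and above the box on every rejecting array.

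Of the members read by 1 symbol, Ifi205 was lower in tolerant samples, within the range of silent genes, and Ifi203 was higher, most on arrays 3 and 4, while Aim2 and Ifi202b overlapped between the groups. Ifi203 and the shared Ifi211 and Ifi204 probe set were the ones that reached above background, on 2 tolerant arrays and 1 tolerant array. Above the line on at least 1 array was thus 1 of the 4 members, against 25.5% of all probe sets, and 3 of the 4 were above it on 0 arrays, as were 74.5% of all. Over all 8 arrays, 0% of all 21218 probe sets were called by limma at an adjusted p under 0.05 (613 had an unadjusted p under 0.05), and so 0 of the 4 members. Groups that did not overlap were found for 1 of the 4 members, Ifi205, against 2.22% of all probe sets (1.13% wholly lower and 1.09% wholly higher in tolerant samples). Within arrays 3 and 4, 2 of the 4 members did not overlap, Ifi205 lower and Ifi203 higher, against 39.4% of all probe sets (20% lower and 19.3% higher). Within arrays 1 and 2, 3 of the 4 did not overlap, Ifi205 and Aim2 lower and Ifi202b higher, against 34.3% (17.1% lower and 17.2% higher).

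Ifi205, a nuclear p200 protein and the member by which the family came to notice, had log2 values of 0.00, 0.03, 0.07 and 0.30 on tolerant arrays 1 to 4, against 0.62, 0.70, 0.63 and 0.82 on rejecting arrays 1 to 4. All tolerant values lay below all rejecting values, with a gap of 0.32 between the groups. The means were 0.10 ± 0.14 in tolerant samples and 0.69 ± 0.09 in rejecting samples (SD, n = 4 each). The difference was -0.59 with a standard error (SE) of 0.10 over all 8 arrays, -0.54 (SE 0.14) within arrays 3 and 4 and -0.64 (SE 0.14) within arrays 1 and 2. Subtracting arrays of the same number gave -0.62, -0.67, -0.56 and -0.52 for numbers 1 to 4. The labels do not pair the arrays, and since the groups did not overlap, any matching gives lower tolerant values. The differences within the 2 sets were of like size, and that between the sets was 0.10 (SE 0.19).

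Ifi205 stayed below the background line on all 8 arrays. Its value exceeded that of 1.79%, 3.48%, 28% and 73.5% of olfactory receptor probe sets on tolerant arrays 1 to 4, against 83.4%, 87.8%, 93.7% and 96.6% on rejecting arrays 1 to 4. The probe set was thus among the dimmest of silent genes on tolerant arrays 1 and 2 and in their upper part on every rejecting array. Of the 1006 olfactory receptor probe sets, 1 had a lower tolerant minus rejecting value over all 8 arrays than Ifi205, 4 did within arrays 3 and 4, and 6 within arrays 1 and 2. That contrast chose the family, so nothing is read from these counts. Over all 8 arrays 2.19% of the silent probe sets lay wholly lower in tolerant samples. Within arrays 3 and 4 they were themselves shifted, with 39.6% wholly lower in tolerant samples and 6.06% wholly higher.

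Ifi203, a p200 protein of the same gene cluster, had values of 1.05, 0.62, 1.39 and 1.64 on tolerant arrays 1 to 4, against 0.67, 0.44, 0.55 and 0.58 on rejecting arrays 1 to 4. Tolerant arrays 3 and 4 were the highest of the 8 and the only ones above the background line, while tolerant array 2 lay inside the rejecting range. The means were 1.18 ± 0.44 in tolerant samples and 0.56 ± 0.10 in rejecting samples (SD, n = 4 each). The difference was 0.61 (SE 0.19) over all 8 arrays, 0.95 (SE 0.17) within arrays 3 and 4 and 0.28 (SE 0.17) within arrays 1 and 2. Subtracting arrays of the same number gave 0.38, 0.18, 0.84 and 1.06 for numbers 1 to 4. The labels do not pair the arrays, and over all 8 arrays the groups overlapped. The difference between the sets was 0.67 (SE 0.24).

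Above the line on tolerant arrays 3 and 4 and on no other was a pattern that Ifi203 shared with 2.05% of all probe sets. Against silent genes, Ifi203 exceeded 96.9%, 79.5%, 99.6% and 99.9% of olfactory receptor probe sets on tolerant arrays 1 to 4, against 87.3%, 61.2%, 88.5% and 90.8% on rejecting arrays 1 to 4. As large a tolerant minus rejecting value was found for 0 of 1006 olfactory receptor probe sets within arrays 3 and 4, and for 134 within arrays 1 and 2. The silent probe sets were themselves shifted lower in tolerant samples within arrays 3 and 4, so the first count does not show how rare such a value is. Among all 21218 probe sets with 1 symbol, Ifi203 ranked 105 by unadjusted limma p within arrays 3 and 4. Limma called 0.382% of all probe sets within arrays 3 and 4 (81, with 0 of the 4 members among them) and 0% within arrays 1 and 2 (1519 had an unadjusted p under 0.05). These counts do not bear on the members, which the same contrast chose.

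**Figure D3:**
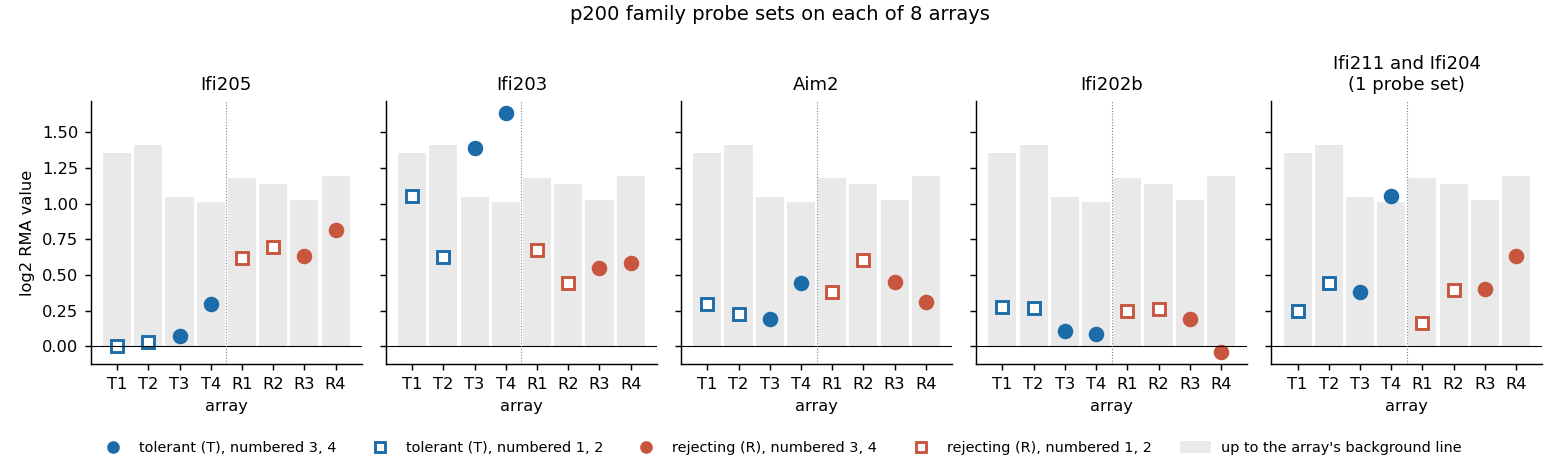
Log2 values of the 5 member probe sets (y axis) on each array (x axis), with tolerant arrays T1 to T4 left of rejecting arrays R1 to R4. Filled circles are arrays numbered 3 and 4, open squares arrays numbered 1 and 2, and grey columns end at each array's background line; the 4 tolerant values of Ifi205 lie below all its rejecting values, and Ifi203 is highest on T3 and T4.

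Aim2, the inflammasome sensor, had values of 0.30, 0.22, 0.20 and 0.44 on tolerant arrays 1 to 4, against 0.38, 0.61, 0.45 and 0.31 on rejecting arrays 1 to 4. The groups overlapped and no array reached the background line. The means were 0.29 ± 0.11 in tolerant samples and 0.44 ± 0.13 in rejecting samples (SD, n = 4 each). The difference was -0.15 (SE 0.10) over all 8 arrays, -0.06 (SE 0.15) within arrays 3 and 4 and -0.23 (SE 0.15) within arrays 1 and 2. In arrays 1 and 2 the tolerant values lay below the rejecting ones by 0.08, a separation that 17.1% of all probe sets showed in that direction.

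Ifi202b, the Aim2 antagonist, had values of 0.27, 0.27, 0.11 and 0.09 on tolerant arrays 1 to 4, against 0.24, 0.26, 0.19 and -0.04 on rejecting arrays 1 to 4. The group means were nearly the same, 0.18 ± 0.10 in tolerant samples and 0.16 ± 0.14 in rejecting samples (SD, n = 4 each), and every value lay below the line. Differences were 0.02 over all 8 arrays (SE 0.10), 0.02 within arrays 3 and 4 (SE 0.13) and 0.02 within arrays 1 and 2 (SE 0.13). At these errors a small difference of either sign was not detectable for Ifi202b.

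The probe set that stands for both Ifi211 (Mnda) and Ifi204, the mouse relative of human IFI16, had values of 0.25, 0.45, 0.38 and 1.05 on tolerant arrays 1 to 4, against 0.16, 0.39, 0.41 and 0.63 on rejecting arrays 1 to 4. Only tolerant array 4 passed its background line, and by little, and the other tolerant values lay within the rejecting range. Its means were 0.53 ± 0.36 in tolerant samples and 0.40 ± 0.19 in rejecting samples (SD, n = 4 each). In a fit over all 35556 probe sets the difference was 0.13 (SE 0.19) over all 8 arrays, 0.20 (SE 0.24) within arrays 3 and 4 and 0.07 (SE 0.24) within arrays 1 and 2. How much of the signal belongs to either gene cannot be told from this probe set.

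Whether the members followed the sets of arrays was tested, since that contrast did not choose them. Arrays 3 and 4 minus arrays 1 and 2, with the group as a covariate, gave 0 of the 4 members past the threshold, against 7.45% of all probe sets (1580, of which those higher were 6.4% of all and those lower 1.05%). For Ifi203 the difference was 0.34 (SE 0.16, limma adjusted p = 0.215), and it was higher in both tolerant arrays numbered 3 and 4 than in both numbered 1 and 2, but not so in rejecting samples. Ifi205 differed by 0.12 (SE 0.09, limma adjusted p = 0.462), Ifi202b by -0.17 (SE 0.09, limma adjusted p = 0.252) and Aim2 by -0.03 (SE 0.10, limma adjusted p = 0.896). The shared Ifi211 and Ifi204 probe set differed by 0.31 (SE 0.16, limma adjusted p = 0.283). The sign for Aim2 depended on the scaling and was positive after quantile normalization, cyclic loess or olfactory receptor centring. The difference between the 2 sets' tolerant minus rejecting values, which is made of the contrast that chose the members, was called for 0.0566% of all probe sets (12), with 0 of the 4 members among them.

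**Figure D4:**
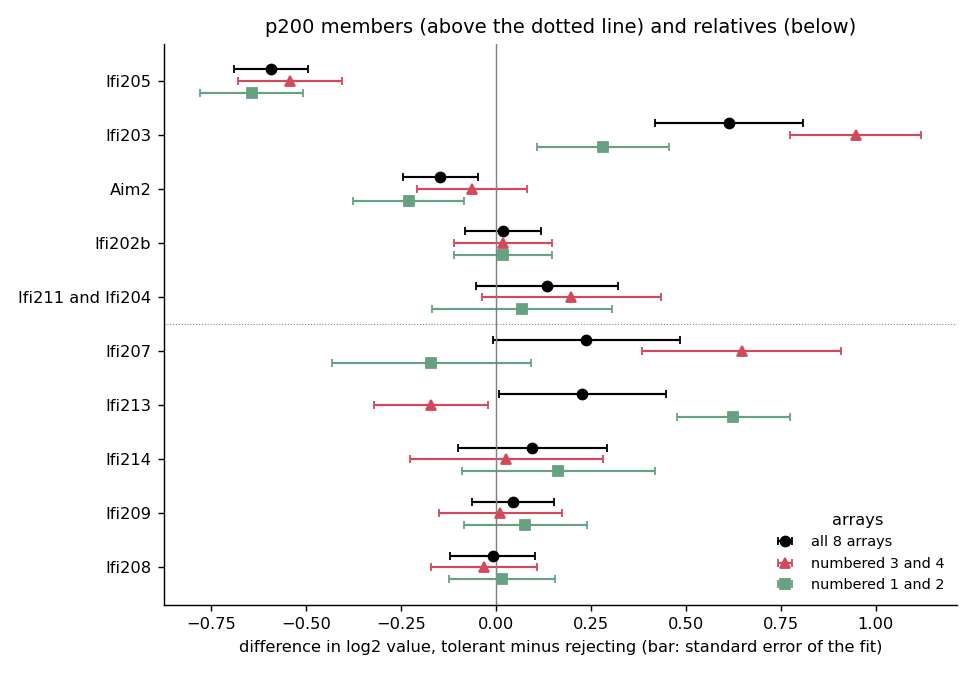
Tolerant minus rejecting difference in log2 value (x axis; bars are standard errors of the fit) for the members, above the dotted line, and their relatives, below it. Black is all 8 arrays, red arrays numbered 3 and 4, green arrays numbered 1 and 2; Ifi205 lies at -0.59, -0.54 and -0.64, and Ifi203 at 0.61, 0.95 and 0.28.

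Of 7 relatives of the members in the cluster, 5 had a probe set with 1 symbol, and Mndal and Ifi206 had none. In each of the 3 tolerant minus rejecting comparisons 0 of the 5 were called. Of the 5, 4 stayed below the line on every array, as did 74.5% of all probe sets. Ifi207 had values of 0.06, 0.27, 0.43 and 1.35 on tolerant arrays 1 to 4, against 0.22, 0.46, 0.36 and 0.12 on rejecting arrays 1 to 4. As with the shared Ifi211 and Ifi204 probe set, only tolerant array 4 was above the line, and the difference within arrays 3 and 4 was 0.65 (SE 0.26).

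Ifi213 ran the other way between the sets. Its values were 1.05, 1.19, 0.11 and 0.44 on tolerant arrays 1 to 4, against 0.50, 0.49, 0.54 and 0.35 on rejecting arrays 1 to 4, all below the line. The tolerant minus rejecting difference was -0.17 within arrays 3 and 4 (SE 0.15) and 0.63 within arrays 1 and 2 (SE 0.15). The difference between these values was -0.80 (SE 0.21, limma adjusted p = 0.419), which did not pass. Ifi208 and Ifi209 lay between 0.16 and 0.94 on tolerant arrays, against 0.24 to 0.83 on rejecting arrays, with overlap for both genes.

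Upstream of the p200 genes stand the interferon receptors and their kinases. Of 13 measured genes of interferon signalling, 11 had a positive tolerant minus rejecting value within arrays 3 and 4, with a median of 0.19, 8 did over all 8 arrays, with a median of 0.08, and 7 did within arrays 1 and 2, with a median of 0.02. Of all probe sets, 48.2% were positive within arrays 3 and 4 (median -0.01), 50.1% over all 8 arrays (median 0.00) and 49.4% within arrays 1 and 2 (median -0.00). Of the 13, 1 was called higher and 0 lower within arrays 3 and 4, where 0.382% of all probe sets were called. The gene was Jak1, a kinase bound to both types of interferon receptor. Jak1 had values of 0.45, 0.50, 1.59 and 1.66 on tolerant arrays 1 to 4, against 0.61, 0.68, 0.38 and 0.82 on rejecting arrays 1 to 4. Its difference within arrays 3 and 4 was 1.02 (SE 0.16, limma adjusted p = 0.038), but it passed in 3 of 14 alternatives, with adjusted p = 0.0693 when the array number was a block and 0.224 in the 4 arrays alone. It failed also without each tolerant array in turn and without rejecting array 1, 2 or 3, with limma adjusted p between 0.0895 and 0.237.

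Usp18, which dampens interferon receptor signalling, had values of 0.58, 0.45, 0.52 and 1.29 on tolerant arrays 1 to 4, against 0.08, 0.56, 0.43 and 0.29 on rejecting arrays 1 to 4. Only tolerant array 4 stood clearly apart, and the limma adjusted p within arrays 3 and 4 was 0.834 for a difference of 0.55 (SE 0.25).

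Among 22 measured genes induced by interferon outside the family, 19 had positive tolerant minus rejecting values within arrays 3 and 4 (median 0.11). Over all 8 arrays 17 did (median 0.06), as did 12 within arrays 1 and 2 (median 0.09). The shares of all probe sets with positive values were 48.2%, 50.1% and 49.4%, in that order. None passed the test in these comparisons (0 of 22 at limma adjusted p under 0.05). Of the 22, 17 lay below the line on every array, as did 74.5% of all probe sets. Oasl2, an antiviral oligoadenylate synthetase-like protein, had 0.74, 1.16, 1.19 and 1.77 on tolerant arrays 1 to 4, against 0.63, 0.66, 0.94 and 0.77 on rejecting arrays 1 to 4. Only tolerant array 1 overlapped the rejecting range, and the difference was 0.46 over all 8 arrays (SE 0.19, limma adjusted p = 1) and 0.62 within arrays 3 and 4 (SE 0.21, limma adjusted p = 0.555).

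Its relative Oasl1, which restrains translation of Irf7, had 0.96, 0.94, 1.32 and 1.44 on tolerant arrays 1 to 4, against 0.56, 0.74, 1.15 and 0.90 on rejecting arrays 1 to 4. It was higher on arrays 3 and 4 than on arrays 1 and 2 by 0.40 (SE 0.10, limma adjusted p = 0.0316), a call held in 3 of 12 alternatives.

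For the DNA sensing pathway to which Ifi204 belongs, 9 of 13 measured genes had positive values within arrays 3 and 4 (median 0.06). Over all 8 arrays 6 did (median -0.00), as did 6 within arrays 1 and 2 (median -0.00). The shares of all probe sets were 48.2%, 50.1% and 49.4%, in that order. Of the 13 genes, 0 were called in any of the 3 comparisons. Irf3, the transcription factor activated downstream of Sting, had 0.67, 0.80, 1.35 and 1.39 on tolerant arrays 1 to 4, against 0.65, 0.22, 0.72 and 1.13 on rejecting arrays 1 to 4. It followed the sets of arrays, with a difference of 0.56 (SE 0.13, limma adjusted p = 0.0256) that passed in 4 of 12 alternatives. Within arrays 3 and 4, Irf3 differed by 0.45 between tolerant and rejecting samples (SE 0.18, limma adjusted p = 0.755) and Irf7, which amplifies the interferon response, by 0.29 (SE 0.17, limma adjusted p = 0.952).

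Of 11 measured inflammasome partners of Aim2, 10 were below the line on every array, as were 74.5% of all probe sets. Within arrays 3 and 4, 6 of the 11 had positive values and the median was 0.00. Over all 8 arrays 8 did and the median was 0.06, and within arrays 1 and 2 also 8, with a median of 0.07. The shares of all probe sets with positive values were 48.2%, 50.1% and 49.4%, in that order. Pycard had 0.48, 0.75, 0.44 and 0.48 on tolerant arrays 1 to 4, against 0.42, 0.45, 0.48 and 0.25 on rejecting arrays 1 to 4, and Casp1 stayed between 0.13 and 0.39 on tolerant arrays, against 0.16 to 0.26 on rejecting arrays. Casp8, the list's exception, was above the line on tolerant array 4 at 1.64. Its difference within arrays 3 and 4 was 0.33 (SE 0.29, limma adjusted p = 0.994), and that of Gsdmd, the pore-forming gasdermin, was 0.14 (SE 0.13, limma adjusted p = 0.994). In none of these comparisons was an inflammasome gene called (0 of 11).

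**Figure D5:**
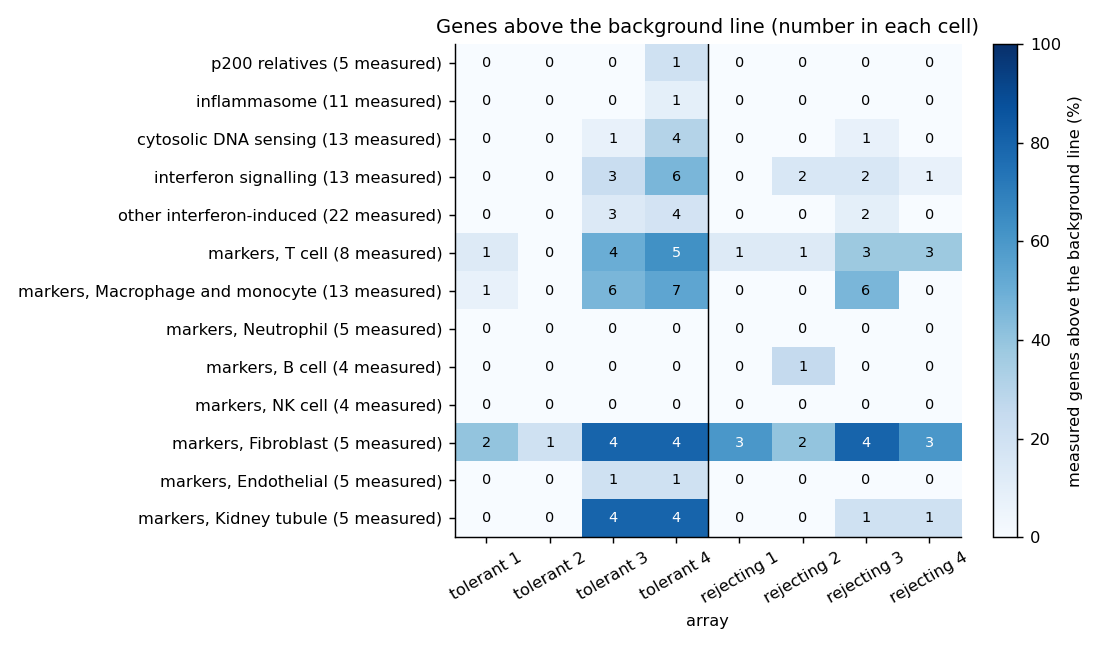
Measured genes of each list above the background line on each array, as a number in each cell and as a percentage in colour, with tolerant arrays left of rejecting arrays. Macrophage markers number 6 and 7 on tolerant arrays 3 and 4, kidney tubule markers 4 and 4, and interferon signalling genes 3 and 6.

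Some markers of several other cell types were also high on tolerant arrays 3 and 4, where Ifi203 was high. The largest differences from rejecting arrays 3 and 4 were those of kidney tubule and fibroblast markers. Of 5 kidney tubule markers, 4 were above the line on each of tolerant arrays 3 and 4 and 0 on tolerant arrays 1 and 2, against 0, 0, 1 and 1 on rejecting arrays 1 to 4. Of the 5, 3 were called higher in tolerant samples within arrays 3 and 4, where 0.382% of all probe sets were called. Slc12a3, the sodium chloride cotransporter of the distal tubule, was 2.93 higher (SE 0.18, limma adjusted p = 0.000421), a call held in 14 of 14 alternatives. Slc12a1, the cotransporter of the thick ascending limb, was 1.97 higher (SE 0.25, limma adjusted p = 0.0142, held in 11 of 14, lost without rejecting array 1 or 2). Umod, uromodulin, was 3.69 higher (SE 0.50, limma adjusted p = 0.0196, held in 8 of 14, lost without tolerant array 1 or 2 or rejecting array 1, 2 or 3). Both were also lost in the 4 arrays alone.

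Fibroblast markers above the line numbered 2, 1, 4 and 4 of 5 on tolerant arrays 1 to 4, against 3, 2, 4 and 3 on rejecting arrays 1 to 4. Their mean log2 value was 1.14, 1.02, 2.96 and 2.81 on the tolerant arrays. On the rejecting arrays it was 1.14, 0.95, 1.96 and 1.63, so it was raised on arrays 3 and 4 of both groups. Of the 5 markers, 1 was called between the groups within arrays 3 and 4, against 0.382% of all probe sets. Dcn, the matrix proteoglycan decorin, was 3.21 higher in tolerant samples within arrays 3 and 4 (SE 0.26, limma adjusted p = 0.00192). The call was held in 13 of 14 alternatives and lost in the 4 arrays alone. Dcn and Slc12a3 were also called for the difference between the sets, by 3.20 (SE 0.37, limma adjusted p = 0.0289) and 3.17 (SE 0.26, limma adjusted p = 0.00543). These calls were held in 7 of 13 and 9 of 13 alternatives, and both were lost after quantile normalization. Endothelial markers above the line numbered 0, 0, 1 and 1 of 5 on tolerant arrays 1 to 4 and 0 on every rejecting array, the gene being Emcn, endomucin. Emcn was 1.25 higher within arrays 3 and 4 (SE 0.15, limma adjusted p = 0.0123), held in 11 of 14. It was lost without tolerant array 3, after quantile normalization and in the 4 arrays alone. Of the 5 endothelial markers, 3 were higher in tolerant samples within arrays 3 and 4 and 2 were lower.

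Of 13 macrophage and monocyte markers, 1, 0, 6 and 7 lay above the line on tolerant arrays 1 to 4, against 0, 0, 6 and 0 on rejecting arrays 1 to 4. Their mean log2 value was 0.55, 0.61, 1.25 and 1.52 on the tolerant arrays, against 0.53, 0.66, 1.17 and 0.55 on the rejecting arrays. Rejecting array 3, where 6 macrophage markers were above the line, had an Ifi203 value of 0.55, within the range of the other rejecting arrays. Lyz2, macrophage lysozyme, stood at 1.41 there, against 3.30 and 3.14 on tolerant arrays 3 and 4. A link between macrophage markers and Ifi203 was not tested. Within arrays 3 and 4, 9 of the 13 markers were higher in tolerant samples and 4 were lower, Tyrobp, Fcer1g and Itgam among the latter. Lyz2 was 2.40 higher in tolerant samples within arrays 3 and 4 (SE 0.36, limma adjusted p = 0.0343), a call held in 6 of 14 alternatives. C1qb, a complement chain made by macrophages, was 2.00 higher (SE 0.33, limma adjusted p = 0.0497), held in 3 of 14.

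T-cell markers had mean log2 values of 0.91, 0.75, 1.25 and 1.68 on tolerant arrays 1 to 4, against 0.83, 0.72, 1.06 and 1.18 on rejecting arrays 1 to 4, and were thus also highest on tolerant arrays 3 and 4. Arrays 3 and 4 were higher than arrays 1 and 2 for 2 of the 8 T-cell markers (Cd3e and Thy1), 3 of the 13 macrophage markers (C1qb, C1qc and Fcer1g), 4 of the 5 fibroblast markers (Col1a1, Col1a2, Col3a1 and Dcn) and 2 of the 5 kidney tubule markers (Umod and Slc34a1), by 0.76 to 2.71 (limma adjusted p between 0.000336 and 0.0355). Of all probe sets, 6.4% were called higher in that contrast. Each of these marker calls was lost in 1 to 8 of 12 alternatives. Neutrophil and NK cell markers were above the line on 0 arrays, as were 74.5% of all probe sets. The part of these cells in the Ifi203 values was not tested.

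The genes whose centred values over the 8 arrays lay nearest to those of Ifi205, among 18835 probe sets, were Htra3, a secreted serine protease, Znrd2, and Pdcd10, a scaffold of the cerebral cavernous malformation complex. Their root mean square differences from Ifi205 were 0.133, 0.134 and 0.149 log2 units. Pdcd10 had values of 0.22, 0.30, 0.34 and 0.35 on tolerant arrays 1 to 4, against 0.84, 0.58, 0.67 and 0.72 on rejecting arrays 1 to 4, and like Ifi205 it was above the line on 0 arrays. For Ifi203 the nearest were Otud5, a deubiquitinase, at 0.144, Pdcd4, an inhibitor of translation, at 0.15, and Fyn, a kinase of the T-cell receptor pathway, at 0.15. Fyn had values of 0.75, 0.50, 1.10 and 1.23 on tolerant arrays 1 to 4, against 0.51, 0.40, 0.60 and 0.57 on rejecting arrays 1 to 4, and was above the line on 2 arrays. These genes were picked for their likeness, so their values carry no test.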

How the data were processed

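The deposited values are log2 expression of 35556 probe sets on the 8 arrays. The authors used Affymetrix Expression Console with RMA (background correction, quantile normalization and probe summary), per the submitters' processing notes. The software version, library files and genome build were not given in the sources used here. Base 2 was taken from the range of the values, from -0.97 to 12.7. Gene names came from the platform annotation, updated through Entrez identifiers. RefSeq promoters (GRCm38.p6) gave sequences. Members and lists were chosen with earlier results of these data known.

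Tests used limma 3.58.1 in R 4.3.3 (lmFit and eBayes, 2-sided, Benjamini-Hochberg over 21218 probe sets with 1 symbol, threshold 0.05), with 1 fit of 4 cells (group by array set) for the values within sets. The number of arrays limits the precision. The code was tested on simulated data. The genes named were every member with a probe set, list genes that passed, and the 3 genes most like Ifi205 and most like Ifi203 by root mean square difference. Of each list other than the cell-type markers, 2 genes were also named, those of smallest unadjusted p within arrays 3 and 4. Pycard, Casp1, Tyrobp, Itgam, Cd2, Cd3d, Cd3g, Cd5, Cd6, Cd247 and the remaining p200 relatives were added after their values were seen. Alternatives were other scalings, filters and model settings, the array number as a block, and leaving out each array. Same-numbered tolerant and rejecting arrays deviated together (correlations 0.499, 0.507, 0.410 and 0.599 for numbers 1 to 4), but arrays of different number in the same set did so as much (0.411 to 0.581). The data thus show the 2 sets but no pairing by number, and the labels give no pairing. Plots used Python 3.11.15 and matplotlib 3.10.9.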

Additional observations from a re-analysis of the deposited data

Results flagged for a closer look

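Ifi214, a relative of the members, stood at 0.93 on tolerant array 1, far above tolerant arrays 2, 3 and 4, which lay at 0.22, 0.21 and 0.26. Rejecting arrays 1 to 4 had 0.69, 0.14, 0.39 and 0.03. The value lies below that array's background line of 1.35. It was the 1 distant value among 20 groups of 4 examined, about as many as chance gives.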

How the results depend on the processing

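With 1 array left out of a set, the lone array of its group was assumed to vary like the others. The tolerant minus rejecting value of Ifi205 over all 8 arrays kept its sign in all 17 alternatives (-0.66 to -0.55) and that of Ifi203 in all 18 (0.46 to 0.80). Within arrays 3 and 4, Ifi203 kept its sign in all 15 (0.82 to 1.07), and it counted as called in 1 of them, olfactory receptor centring, from which nothing is read since the contrast chose it. Counts of probe sets called moved more, and the cause was not tested. Over all 8 arrays, 0 were called under every alternative, including the replicate block and the array set as a block. Within arrays 3 and 4, 81 became 11 in the 4 arrays alone, 16 when these were quantile normalized again, 8 when they had the replicate block, and 41 to 176 when 1 array was left out (41 without rejecting array 1 or 2, 45 without tolerant array 1 or 2, 46 without tolerant array 3, 53 without tolerant array 4, 176 without rejecting array 4). Within arrays 1 and 2, 0 became 2 with a variance trend. For the difference between the sets, 12 became 0 after quantile normalization, 7 with the replicate block, 27 after olfactory receptor centring (chosen after seeing the data) and 0 to 76 when 1 array was left out, moving past 1.5 times whichever array was left out. For arrays 3 and 4 minus arrays 1 and 2, 1580 became 637 after quantile normalization, 290 after cyclic loess, 2809 at a threshold of 0.1, 4208 after olfactory receptor centring, and 863 to 1426 when 1 array was left out (985, 863 and 984 without tolerant array 2, 3 or 4). Aim2 turned sign in that contrast, to 0.037 after quantile normalization, 0.0669 after cyclic loess, 0 after median centring, 0.1329 after olfactory receptor centring, and -0.093 to 0.0357 when 1 array was left out (0.0068 without tolerant array 3, 0.0357 without rejecting array 2, 0.0178 without rejecting array 4). Member values above background, 3 at the 99th percentile, were 5 at the 95th and 0 against the highest olfactory receptor probe set.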
